A study of Mus musculus with 12 samples.

Results

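The genes described here mark macrophages and their blood precursors, the monocytes. They are 40 listed genes, all 40 of which were found among the 26781 genes of a mouse heart table by matching Ensembl identifiers to gene symbols, and 38 of them were expressed highly enough to be tested. Heart RNA of C57BL/6J mice, an inbred laboratory strain, was sequenced in 12 libraries that fall into 4 groups of 3: sham, MI, CIH and MI+CIH. MI is read here as myocardial infarction and CIH as chronic intermittent hypoxia, the repeated drops in oxygen of sleep apnoea, so that MI+CIH hearts had both, CIH hearts had hypoxia alone and sham hearts neither. All groups share the strain, and the labels name no allele in any of them. Age, sex, the time after infarction, the hypoxia schedule, the way an infarct was made and the part of the heart taken are not given in the sources used here. The labels do not say whether each library came from its own animal, so the p-values rest on how libraries of a group vary, and that variation may be technical.

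Heart muscle holds a resident population of macrophages that clear dying cells and debris and that carry scavenger receptors such as CD163 and the mannose receptor. When muscle dies, monocytes enter from the blood, first as inflammatory cells and later as macrophages that take up lipid and dead cells and border the scar. The lung has macrophages of its own in the air sacs, with receptors such as MARCO. The 40 genes were therefore set in 4 role groups, with 10 genes of resident heart macrophages, 9 of recruited monocytes and wound macrophages, 3 of lung and other tissue macrophages, and 18 that macrophages and related white blood cells share. The groups are a guide only, since no gene of the list is limited to a single cell type.

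The values are FPKM, read counts scaled to exon length and library size, so levels can be set against each other between genes. Library totals recovered from the table were 26.06 to 33.42 M reads. Heart muscle genes were abundant in every library, with 9 of them summing to 7639.5 FPKM in MI+CIH 3, 10774 and 12737 in MI+CIH 1 and 2, and 13675 to 18082 in the other 9 libraries. Libraries also differed in genes of other tissues. The sum of 12 lung epithelium genes was 311, 3506 and 1224 FPKM in MI+CIH 1, 2 and 3 and 546 in sham 2, against 1.03 to 17.4 in the other 8 libraries. The sum of 12 neutrophil genes was 341 in MI+CIH 3, 24.2 and 86.9 in MI+CIH 1 and 2, and 3.39 to 18.5 elsewhere, and 79.0 of the 86.9 was Ltf, a gene that glands also express. Fibroblast genes summed to 535 to 1123 in MI+CIH, 386 to 629 in MI and 151 to 271 in sham and CIH. Fat cell genes (6) summed to 475 to 969.7 in MI+CIH, 218 to 571 in MI, 270.0 in sham 2, 40.3 and 51.4 in the other sham libraries and 28 to 57.9 in CIH. Of the 5 fat cell genes tested, 4 rose in MI+CIH vs CIH (median log2 fold change 4.03) and 3 against sham (2.34). Of all tested genes 19.9% and 11.3% rose in these comparisons, with medians of 0.20 and 0.12. What these other cells contribute to the macrophage gene levels was not tested, and in whole-heart RNA more cells of a type and more RNA per cell cannot be told apart.

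Macrophage and monocyte genes were highest in hearts with both infarction and hypoxia. The 40 genes summed to 726, 984 and 1473 FPKM in MI+CIH, 608, 465 and 598 in MI, 314, 356 and 445 in sham and 223, 493 and 456 in CIH. Of the 40, 37 had their highest group mean in MI+CIH, 2 had it in MI and 1 in sham, and the lowest mean lay in CIH for 23 genes and in sham for 17. MI+CIH 3 was the highest of all 12 libraries for 34 genes, and CIH 1 was the lowest for 22. No share of all genes is given for these counts of highest and lowest values, so they have no background. Each library was also set against the geometric mean of all 12, over genes found in every library. The median ratio was highest in MI+CIH 3 (1.202) and lowest in CIH 1 (0.911). The tests used limma (a linear model with a shared estimate of spread, on log2 FPKM + 0.5) over 15503 genes, and a gene is called, or said to rise or fall, where the Benjamini-Hochberg adjusted p was under 0.05. Sizes of a rise or fall are log2 fold changes, and a value in parentheses after one is its adjusted p.

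**Figure D1:**
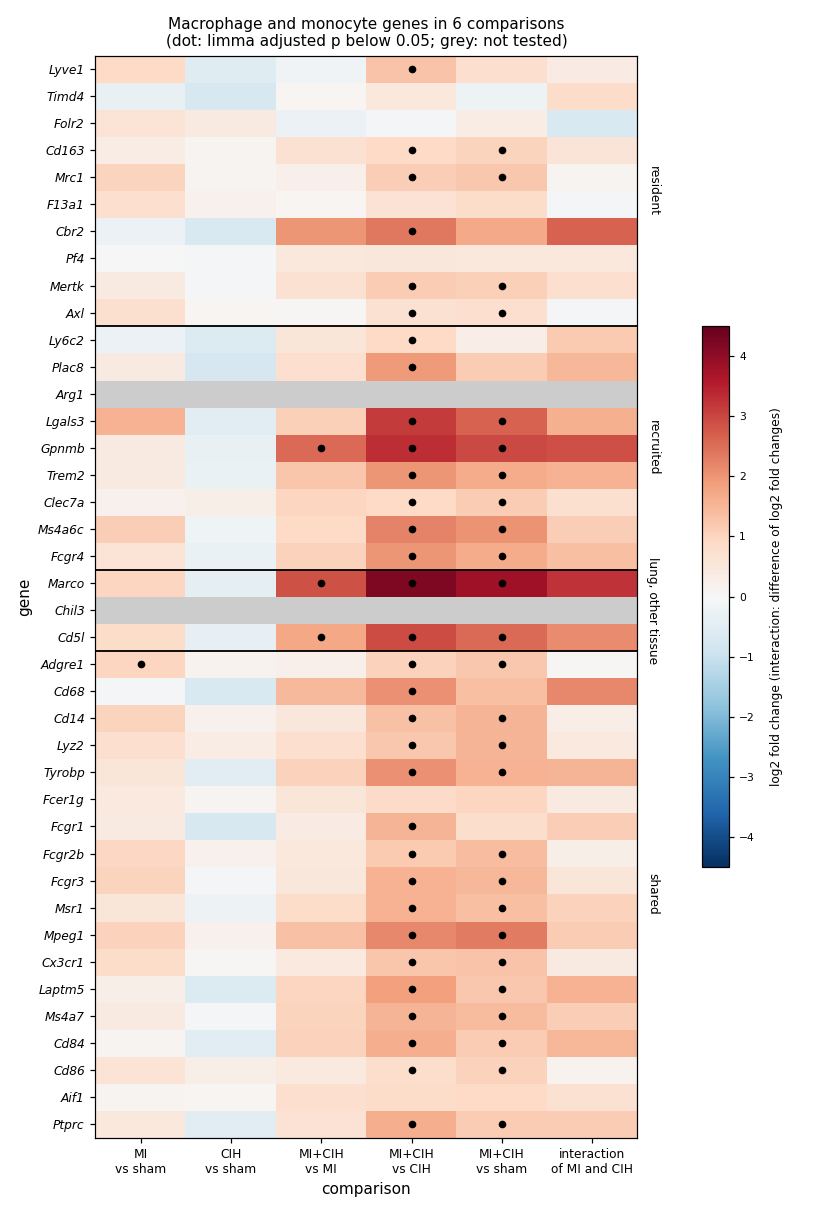
Log2 fold change (colour) of the 40 macrophage and monocyte genes (rows, by role group) in 5 comparisons and the interaction (columns). Dots mark calls at a limma adjusted p under 0.05. Arg1 and Chil3, which were not tested in the main fit, are grey. Calls lie almost wholly in the comparisons of MI+CIH with CIH (32 genes) and with sham (26 genes).

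In MI vs sham, which asks what infarction alone did to the heart, 1 of the 38 tested genes rose and 0 fell, while 1.37% of all tested genes rose and 0.593% fell. The gene that rose was Adgre1, which encodes F4/80, the classic surface marker of mouse macrophages. The median log2 fold change of the tested genes was 0.53 against 0.06 over all genes, and 14 reached an unadjusted p under 0.05. No share of all genes at that unadjusted level is given here, so the 14 have no background. Every MI library lay above every sham library for 20 of the 40 genes, a separation that 19.8% of all tested genes showed.

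In CIH vs sham, which asks what hypoxia did alone, limma called 0 of 38, as did the voom count fit. At an unadjusted p under 0.05, 4 genes were lower and 0 higher, again without a share of all genes to set beside them. A single gene of the whole table passed (0.00645%). The median log2 fold change was -0.15 against -0.07 over all genes. Every CIH library lay below every sham library for 5 genes, Ly6c2, Gpnmb, Cd68, Laptm5 and Ptprc, and above for 0, against 11.8% and 5.67% of all tested genes.

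In MI+CIH vs MI, which asks what hypoxia added to infarction, 3 genes rose, Gpnmb, Marco and Cd5l, and 0 fell, where 0.329% of all tested genes passed, 0.239% rising and 0.0903% falling. Every MI+CIH library lay above every MI library for 19 of the 40 genes and below for 0, against 14.6% and 9.19% of all tested genes. The 3 calls sat just under the threshold at adjusted p = 0.0495 each, and the counts in the 3 comparisons with MI+CIH include Cd5l, which entered the tests only through the MI+CIH libraries. Leaving out MI+CIH 2, which had the most lung RNA and the lowest values of many macrophage genes, raised the count to 13, while the share of all tested genes that passed rose to 6.64%. The count fell to 0 without MI+CIH 3, without any 1 of the 3 MI libraries, and without sham 1, sham 3, CIH 2 or CIH 3. Infarction under hypoxia against hypoxia alone, MI+CIH vs CIH, had 32 genes that rose and 0 that fell, where 19.9% of all tested genes rose and 8.26% fell. All MI+CIH libraries lay above all CIH libraries for 33 of the 40 genes, as for 27.3% of all tested genes. Against sham 26 rose and 0 fell, with 11.3% and 5.51% of all tested genes, and 32 were higher without overlap (23.8%). The count of 26 was 13 without sham 1, 14 without sham 2 and 15 without MI+CIH 3, where 6.3%, 8.81% and 8.13% of all tested genes passed in place of 16.8%. The comparisons share groups, so their counts are not separate evidence.

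By role, the genes called in MI+CIH vs CIH were 6 of 10 resident genes, all 8 tested recruited genes, both tested lung and other tissue genes and 16 of 18 shared genes. The median log2 fold changes in the same order were 0.79, 1.97, 3.57 and 1.52, and 0.20 over all genes. For MI+CIH vs sham the counts were 4, 6, 2 and 14, with medians of 0.79, 1.67, 3.18 and 1.32 against 0.12. The lung and other tissue medians rest on 2 genes, Marco and Cd5l, and Cd5l was tested only through the MI+CIH libraries. Scaling the libraries by median ratios moved the all-gene median to 0.03 in MI+CIH vs CIH and to -0.00 in MI+CIH vs sham, and then 28 and 26 of the 40 genes rose.

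The resident genes had the smallest median changes of the 4 role groups in each comparison with MI+CIH. Lyve1 (ENSMUSG00000030787, chromosome 7, 110850607 to 110863239, minus strand, GRCm38) encodes a hyaluronan receptor of vessel-associated heart macrophages that lymphatic endothelium also carries. Its levels were 13.1, 10.1 and 17.5 FPKM in sham, 34.9, 20.5 and 22.1 in MI, 6.44, 12.1 and 9.2 in CIH and 17.2, 27.4 and 24 in MI+CIH. All MI libraries lay above all sham libraries, and all MI+CIH libraries above all CIH libraries, while MI and MI+CIH overlapped. Lyve1 rose in MI+CIH vs CIH, with a log2 fold change of 1.28 (SE 0.28, adjusted p = 0.00817), and this held in all 21 alternatives. In MI vs sham its change was 0.90 (SE 0.28, adjusted p = 0.141), and in MI+CIH vs MI it was -0.16 (SE 0.28, adjusted p = 0.816). The 6 lymphatic genes looked at beside it did not move as one. Prox1, their most abundant, was 13.7, 16.3 and 16.2 FPKM in sham hearts and 11, 11.2 and 12.3 in MI hearts, and it fell in MI+CIH against CIH (-0.70, adjusted p = 0.00906) and against sham (-0.70, 0.0149). Flt4 was 6.83, 5.6 and 6.54 in sham and 9.67, 8.96 and 10.3 in MI and Mmrn1 4.2, 5.54 and 5.38 and 12.8, 7.18 and 12.4, and both rose in MI+CIH vs CIH (0.42, 0.0414, and 1.01, 0.0334), Mmrn1 also against sham (1.02, 0.0462). Reln and Pdpn passed in no comparison and Ccl21a was at 0 in every library. What lymphatic vessels add to Lyve1 was not tested.

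Mrc1, the mannose receptor, and Cd163, a scavenger receptor for haemoglobin, are receptors of the same resident cells. Mrc1 stood at 6.47, 8.01 and 11.3 FPKM in sham, 17.9, 14.4 and 19.7 in MI, 7.7, 10.9 and 9.02 in CIH and 15.1, 15.1 and 35.4 in MI+CIH. Its MI libraries all lay above its sham libraries, and MI+CIH 3 was the highest of all. Mrc1 rose by 1.10 in MI+CIH against CIH (adjusted p = 0.0221) and by 1.22 against sham (0.0225), and each call held in 16 of 21 alternatives. Cd163 stood at 10, 14.9 and 11.3 FPKM in sham, 23.5, 12.4 and 11.4 in MI, 11.5, 11.4 and 16.5 in CIH and 17.9, 26.9 and 30.3 in MI+CIH. Here MI did not separate from sham, because MI 2 and MI 3 lay inside the sham range. Cd163 rose by 0.89 in MI+CIH against CIH (adjusted p = 0.0372) and by 1.01 vs sham (0.0338), calls that held in 11 and 14 of 21 alternatives.

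Mertk and Axl are related receptors with which macrophages take up dying cells. Mertk stood at 4.0, 5.41 and 6.09 FPKM in sham, 6.7, 7.03 and 6.72 in MI, 4.6, 4.63 and 5.24 in CIH and 11.2, 7.55 and 16.4 in MI+CIH. All MI+CIH libraries lay above all other 9, while MI exceeded sham by a small margin in each library. Mertk rose by 1.14 in MI+CIH against CIH (adjusted p = 0.00537) and by 1.06 vs sham (0.0117), and its change in MI+CIH vs MI was 0.68 (0.147). Axl, which fibroblasts and vessel cells also express, stood at 34.3, 32.6 and 44.9 FPKM in sham, 57.5, 61.7 and 64 in MI, 30.5, 46.3 and 41.8 in CIH and 61.5, 61.5 and 65 in MI+CIH. The MI and MI+CIH libraries overlapped and all lay above the sham and CIH libraries. In MI vs sham its change was 0.72 (SE 0.17, adjusted p = 0.06), just outside the threshold, and it passed in 4 of 21 alternatives. Axl rose in MI+CIH against CIH (0.68, adjusted p = 0.0143) and against sham (0.76, 0.0149), and its 3 MI+CIH values differed by 1.06-fold at most.

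Cbr2, a carbonyl reductase of resident macrophages that is also abundant in lung epithelium, stood at 21.2, 60.6 and 43 FPKM in sham, 41.5, 23.4 and 32 in MI, 8.92, 32.7 and 45.4 in CIH and 39.1, 289.6 and 172 in MI+CIH. The highest value fell in MI+CIH 2, the library with the most lung RNA, and the MI+CIH libraries differed by 7.41-fold. Cbr2 rose in MI+CIH vs CIH by 2.37 (adjusted p = 0.0386), a call that held in 9 of 21 alternatives. Pf4, a chemokine that platelets store and some resident macrophages express, stood at 29.6, 30.1 and 35.5 FPKM in sham, 35.9, 21.6 and 42.6 in MI, 14, 43.5 and 47.8 in CIH and 19.7, 38.7 and 113 in MI+CIH and passed in no comparison. Its value in MI+CIH 3 stood far above the other 11, and the 7 platelet genes looked at beside it summed to 50.3 FPKM in that library against 5.66 to 21.9 in the others. What platelets add to Pf4 was not tested.

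The other 3 resident genes passed in none of the 6 comparisons by limma. Timd4, a receptor of long-lived resident macrophages, ranged from 0.551 to 2.43 FPKM over the libraries and had its highest group mean in sham, at 1.68 ± 0.655 FPKM (mean ± SD, n = 3). Its means in MI, CIH and MI+CIH were 1.32 ± 0.885, 0.834 ± 0.388 and 1.4 ± 0.797. Folr2, a folate receptor of resident macrophages, ranged from 2.67 to 7.7, with a log2 fold change of -0.07 in MI+CIH vs CIH (95% interval -0.74 to 0.60). F13a1, which encodes the A chain of clotting factor XIII, ranged from 14.4 to 64.3 FPKM, with MI+CIH 3 the highest. For Timd4 the log2 fold change in the same comparison was 0.47, with a 95% interval of -0.38 to 1.32.

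The recruited genes showed larger differences in hearts with both conditions. Gpnmb (ENSMUSG00000029816, chromosome 6, 49036546 to 49070929, plus strand) encodes a glycoprotein of lipid-laden macrophages in injured tissue. Its levels were 0.868, 1.12 and 0.987 FPKM in sham, 1.32, 1.18 and 2.0 in MI, 0.475, 0.822 and 0.759 in CIH and 26.2, 4.85 and 10.5 in MI+CIH. All MI+CIH libraries lay above the other 9, and CIH lay below sham in every library. Gpnmb rose in MI+CIH vs MI, with a log2 fold change of 2.56 (SE 0.44, adjusted p = 0.0495), and this call held in 4 of 21 alternatives (adjusted p from 0.00426 to 0.208). It was lost without MI+CIH 3, without any 1 of the MI or sham libraries and without CIH 2 or CIH 3, and was stronger without MI+CIH 2, at 3.12 (adjusted p = 0.00426). Gpnmb rose in MI+CIH vs CIH (3.31 (SE 0.44, adjusted p = 0.0016)) and in MI+CIH vs sham (2.97 (SE 0.44, adjusted p = 0.00386)), and both calls held in all 21 alternatives.

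Trem2, a lipid-sensing receptor of the same macrophages, stood at 0.986, 0.738 and 1.23 FPKM in sham, 1.27, 1.54 and 1.58 in MI, 0.388, 0.672 and 1.11 in CIH and 4.66, 1.96 and 7.44 in MI+CIH. The lowest MI+CIH value lay above the highest MI value. Trem2 rose by 1.97 in MI+CIH against CIH (adjusted p = 0.00377) and by 1.66 vs sham (0.0123). Lgals3, which encodes galectin-3, a lectin secreted by wound macrophages and also made by epithelium, stood at 3.81, 1.18 and 1.97 FPKM in sham, 7.5, 6.14 and 8.2 in MI, 0.784, 2.71 and 0.99 in CIH and 13.5, 8.52 and 33.8 in MI+CIH. All 3 MI libraries lay above the sham libraries and all 3 MI+CIH libraries above the MI libraries. Lgals3 rose by 3.15 in MI+CIH against CIH (0.00266) and by 2.64 vs sham (0.00876), while its change in MI vs sham was 1.56 (0.155).

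Ms4a6c, a membrane protein of monocytes and macrophages, stood at 2.79, 2.94 and 4.65 FPKM in sham, 7.89, 7.95 and 7.73 in MI, 2.55, 2.8 and 3.32 in CIH and 14.9, 9.96 and 23.6 in MI+CIH. The MI libraries differed by only 1.03-fold and lay above sham and below MI+CIH in every case. Ms4a6c rose by 2.22 in MI+CIH vs CIH (SE 0.26, adjusted p = 0.00116) and by 2.02 vs sham (0.00218), in all 21 alternatives each. Its change in MI vs sham was 1.11 (SE 0.26, adjusted p = 0.0566), which passed in 6 of 21 alternatives. Fcgr4, an activating receptor for antibody, stood at 0.701, 0.226 and 0.341 FPKM in sham, 1.11, 0.387 and 1.41 in MI, 0.113, 0.334 and 0.288 in CIH and 3.27, 0.898 and 4.12 in MI+CIH. MI+CIH 1 and 3 stood far above the rest, and MI+CIH 2 lay within the MI range. Fcgr4 rose by 1.97 in MI+CIH against CIH (0.00734) and by 1.68 vs sham (0.0224).

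Ly6c2, a surface marker of inflammatory blood monocytes, was low and followed another order. It stood at 1.03, 0.905 and 1.12 FPKM in sham, 0.522, 0.983 and 0.84 in MI, 0.532, 0.415 and 0.55 in CIH and 1.5, 1.4 and 1.22 in MI+CIH. Every MI+CIH library lay above the other 9, every CIH library lay below sham, and the MI range reached below the sham range. Ly6c2 rose in MI+CIH vs CIH by 0.91 (adjusted p = 0.0051), and its change vs sham was 0.31 (0.26). Clec7a, the receptor dectin-1 for fungal glucans, stood at 0.963, 1.01 and 1.67 FPKM in sham, 1.71, 0.879 and 1.77 in MI, 0.997, 2.37 and 1.43 in CIH and 3.37, 2.94 and 3.48 in MI+CIH and was higher in each MI+CIH library than in any other. Clec7a rose by 0.89 in MI+CIH against CIH (0.0294) and by 1.16 vs sham (0.0162). Plac8, a small protein of monocytes and neutrophils, stood at 0.128, 0.868 and 0.994 FPKM in sham, 1.33, 0.705 and 0.838 in MI, 0.0446, 0.357 and 0.0947 in CIH and 0.795, 1.15 and 6.21 in MI+CIH, and rose in MI+CIH vs CIH by 1.90 (0.0259). MI+CIH 3, the library with the highest neutrophil genes, held the highest Plac8 value.

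Arg1, which encodes arginase of alternatively activated macrophages, did not reach 0.5 FPKM in 3 libraries and was not tested in the main fit. By voom Arg1 passed in no comparison, with an adjusted p of 0.279 in MI+CIH vs CIH. It stood at 0, 0.0159 and 0.104 FPKM in sham, 0.204, 0.185 and 0.195 in MI, 0.016, 0.188 and 0.0406 in CIH and 1.83, 0.459 and 24.5 in MI+CIH. The MI+CIH libraries differed by 53.5-fold, and all lay above the other 9, with MI+CIH 3 carrying nearly all of the group mean. Ly6c2 has a close copy in Ly6c1, a gene of blood vessel cells, Lyz2 in Lyz1, and Chil3 in Chil4, while Fcgr2b and Fcgr3 resemble each other. How reads of such copies were shared out is not given in the sources used here, so these genes are uncertain.

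The lung and other tissue macrophage genes had the largest median change of the 4 role groups in each comparison with MI+CIH. That median is a description, since it rests on 2 tested genes, Marco and Cd5l. Of these, Cd5l was tested only through the MI+CIH libraries. Promoters of Marco, Cd5l and Gpnmb, the 3 genes that passed in MI+CIH vs MI, are given from RefSeq (GRCm38.p6). Each is 250 bases up to the base before the start site of that source, written 5′ to 3′ along the gene. For Gpnmb the window ends at 49036517, short of the gene start at 49036546 given above. Capitals mark GAGGAAG on either strand, the core of the site bound by PU.1, the transcription factor that macrophage development needs.
Marco promoter, chr1:120505025-120505274, minus strand: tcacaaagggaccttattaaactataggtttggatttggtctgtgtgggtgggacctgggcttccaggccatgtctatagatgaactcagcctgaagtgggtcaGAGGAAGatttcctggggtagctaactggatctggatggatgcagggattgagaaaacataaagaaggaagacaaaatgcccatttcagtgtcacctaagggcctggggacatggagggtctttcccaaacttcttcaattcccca
Cd5l promoter, chr3:87357631-87357880, plus strand: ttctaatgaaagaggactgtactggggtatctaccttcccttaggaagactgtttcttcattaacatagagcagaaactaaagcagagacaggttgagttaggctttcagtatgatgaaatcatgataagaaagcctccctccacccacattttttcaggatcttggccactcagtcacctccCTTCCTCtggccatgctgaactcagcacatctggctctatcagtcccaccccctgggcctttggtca
Gpnmb promoter, chr6:49036268-49036517, plus strand: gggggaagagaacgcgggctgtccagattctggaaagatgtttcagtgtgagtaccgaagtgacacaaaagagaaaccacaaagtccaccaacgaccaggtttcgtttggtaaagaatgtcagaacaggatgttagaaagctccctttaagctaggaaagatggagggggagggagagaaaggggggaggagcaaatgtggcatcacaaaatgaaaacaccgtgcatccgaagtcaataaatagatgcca
The motif begins 146 bases before the start in Marco, on the gene's strand. In Cd5l it lies on the opposite strand, where the printed gene strand shows CTTCCTC from 67 bases before the start, and these letters are absent from the Gpnmb window. Windows of the same length held GAGGAAG on either strand in 10.6% of 32851 mouse promoters and in 15 of the 41 promoters found for 33 of the 40 genes (36.6%). Of 2 further motifs searched on both strands, TGACTCA (AP-1) was in 4.46% of all promoters and in 3 of the 41, and CATGTG (an E-box) in 12.3% and in 4 of the 41. No motif contains another, and a match of letters does not show that a factor binds.

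Marco (ENSMUSG00000026390, chromosome 1, 120474538 to 120505024, minus strand) encodes a scavenger receptor that binds inhaled particles and bacteria on alveolar macrophages. Its levels were 0.088, 0.957 and 0.24 FPKM in sham, 1.65, 0.408 and 1.82 in MI, 0.0369, 0.0777 and 0.376 in CIH and 15.6, 5.9 and 16.1 in MI+CIH. All MI+CIH libraries lay above all others, and among the rest MI 1 and MI 3 were the highest. Marco rose in MI+CIH vs MI by 2.86 (SE 0.48, adjusted p = 0.0495), in MI+CIH vs CIH by 4.21 (SE 0.48, adjusted p = 0.00116) and in MI+CIH vs sham by 3.80 (SE 0.48, adjusted p = 0.0021). The last 2 calls held in all 21 alternatives and the first in 7, being lost without any 1 of the MI libraries, without MI+CIH 1 or MI+CIH 3, without sham 1 or 3, and without CIH 2 or 3 (adjusted p over alternatives from 0.00947 to 0.192).

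Cd5l (ENSMUSG00000015854, chromosome 3, 87357881 to 87371073, plus strand) encodes a secreted protein of tissue macrophages that guards them against cell death. It stood at 0.0333, 0.365 and 0.227 FPKM in sham, 1.15, 0.349 and 0.819 in MI, 0.0175, 0.0882 and 0 in CIH and 2.79, 3.17 and 5.15 in MI+CIH. As for Marco, all MI+CIH libraries lay above the other 9, but their spread was narrower, at 1.85-fold. Outside MI+CIH only 2 libraries, both MI, reached the 0.5 FPKM that the filter asks of 3, so Cd5l was tested only because of the group in which it was high, and the fits that follow are given as a description. Its log2 fold change was 1.74 (SE 0.29, adjusted p = 0.0495) in MI+CIH vs MI, 2.94 (SE 0.29, adjusted p = 0.000898) vs CIH and 2.56 (SE 0.29, adjusted p = 0.00147) vs sham. With no filter on low values the limma adjusted p was 0.0463, 0.00193 and 0.0036 in that order. The first call held in 8 of 21 alternatives and was lost without any 1 of the MI libraries, MI+CIH 3, sham 1, sham 3, CIH 2 or CIH 3, and the others held in all 21.

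Chil3 (ENSMUSG00000040809, chromosome 3, 106147554 to 106167564) encodes a chitinase-like protein of alveolar macrophages that neutrophils and wound macrophages also express. It was too low for the main fit and passed in no comparison by voom, with an adjusted p of 0.127 in MI+CIH vs CIH. Its levels were 0, 0.13 and 0.162 FPKM in sham, 0.0995, 0 and 0.123 in MI, 0, 0 and 0 in CIH and 0.235, 1.53 and 11.6 in MI+CIH. Nearly all of it lay in MI+CIH 3. Recovered reads were 0 over the 3 CIH libraries, 14 over sham, 11 over MI and 611 over MI+CIH, so the MI+CIH level was at least 234-fold higher than in CIH, with a floor of 3 reads over the CIH group (counting error only).

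Of the 12 lung epithelium genes, 10 were highest of the MI+CIH libraries in MI+CIH 2, and Scgb3a2 and Napsa in MI+CIH 3, where Marco, Cd5l and Chil3 were highest too. Sftpc, the surfactant gene of the lung's air sacs, stood at 0.0477, 216 and 0.311 FPKM in MI+CIH 1, 2 and 3, and Scgb1a1, a secretory gene of the airways, at 289.8, 2977 and 990.2. Both peaked in MI+CIH 2, where Marco was lowest of the 3 and Cd5l was in the middle, while Scgb3a2, another airway gene, stood at 5.32, 48.7 and 54.8, in the order of Cd5l. In sham 2, with Sftpc at 14.5 and Scgb1a1 at 485, Marco was 0.957 and Cd5l 0.365, each the highest of the sham libraries. Of 11 alveolar macrophage genes outside the list, Ear1 was at 0 in every library, and Siglecf, which encodes the surface marker of these cells, stood at 0, 0.164 and 0.78 in MI+CIH and at 0.0815 or less elsewhere. Itgax, the integrin CD11c of alveolar macrophages and dendritic cells, stood at 0.48, 0.317 and 0.659 FPKM in sham, 0.696, 0.436 and 0.541 in MI, 0.148, 0.374 and 0.295 in CIH and 2.24, 1.47 and 3.01 in MI+CIH and rose in MI+CIH vs MI by 1.34 (adjusted p = 0.0495). What lung tissue adds to Marco, Cd5l and Chil3 was not tested.

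**Figure D2:**
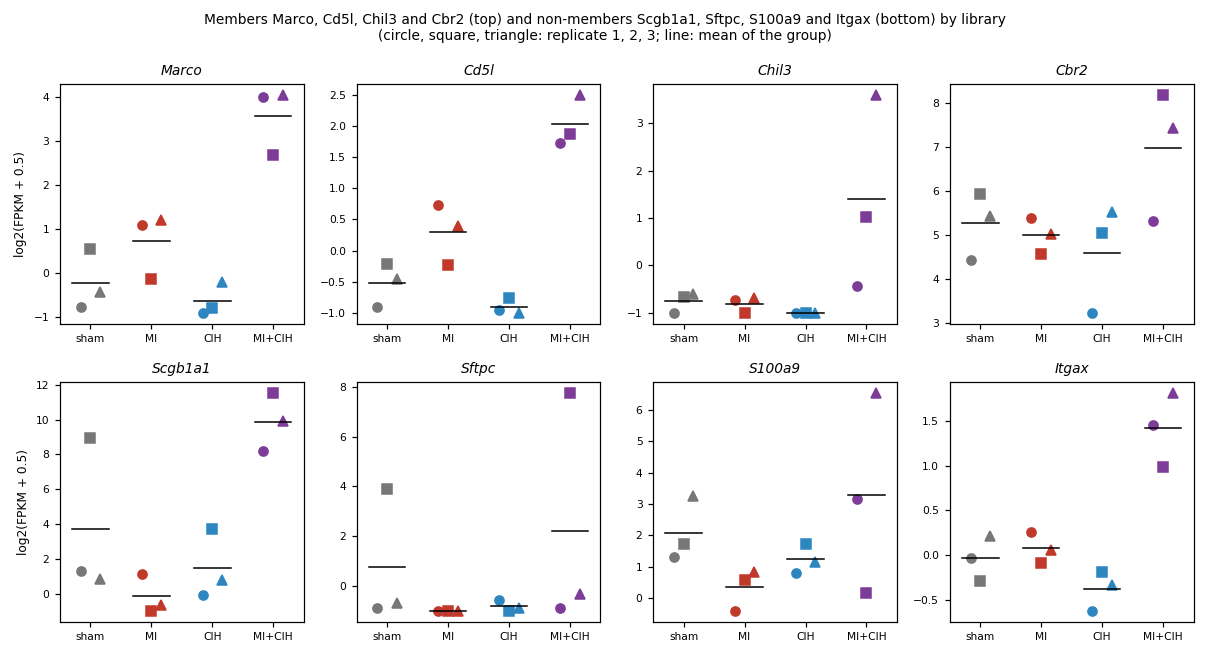
Log2(FPKM + 0.5) in each of the 12 libraries, by group, of Marco, Cd5l, Chil3 and Cbr2 (top) and of 4 genes outside the list (bottom), the airway gene Scgb1a1, the surfactant gene Sftpc, the neutrophil gene S100a9 and the integrin gene Itgax; each panel has its own axis range and lines are means of the plotted values. Scgb1a1 is high in all 3 MI+CIH libraries and in sham 2, Sftpc in MI+CIH 2 and sham 2, and S100a9 in MI+CIH 3. Marco and Cd5l are above the other groups in all 3 MI+CIH libraries.

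Of the 18 shared genes, 16 rose in MI+CIH vs CIH and 14 rose against sham. Adgre1 (ENSMUSG00000004730, chromosome 17, 57358691 to 57483527) stood at 3.07, 2.92 and 4.89 FPKM in sham, 7.4, 6.04 and 9.29 in MI, 3.07, 5.03 and 4.19 in CIH and 8.68, 7.75 and 10.1 in MI+CIH. MI and MI+CIH overlapped, and both lay above every sham and CIH library. Adgre1 rose in MI vs sham by 0.98 (SE 0.22, adjusted p = 0.048), a call that held in 9 of 21 alternatives (adjusted p from 0.0289 to 0.198) and was lost without any 1 of the MI libraries, sham 1, sham 2, CIH 3, MI+CIH 1 or MI+CIH 2. It rose in MI+CIH against CIH by 1.04 (adjusted p = 0.00693) and vs sham by 1.20 (0.00678), and in MI+CIH vs MI its change was 0.22 (95% interval -0.26 to 0.71).

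Lyz2, the lysozyme of macrophages and neutrophils and, in the mouse, of alveolar epithelium, was the most abundant of the 40. It stood at 86.5, 93.2 and 127 FPKM in sham, 191, 142 and 185 in MI, 63.1, 187 and 169 in CIH and 211, 294 and 395 in MI+CIH. The MI+CIH libraries lay above all others, and CIH 1 lay well below the other 2 CIH libraries. Lyz2 rose by 1.20 in MI+CIH against CIH (adjusted p = 0.0344) and by 1.52 vs sham (0.0202). Cd68, a lysosomal membrane protein of macrophages, stood at 8.76, 7.27 and 10.8 FPKM in sham, 8.6, 6.52 and 9.87 in MI, 5.15, 6.59 and 4.27 in CIH and 30.1, 7.71 and 54.2 in MI+CIH. MI was not above sham, CIH lay below sham in every library, and MI+CIH 2 fell within the MI range while MI+CIH 1 and 3 stood far above it. Cd68 rose by 2.06 in MI+CIH against CIH (0.0172). Mpeg1, a pore-forming protein that kills engulfed bacteria, stood at 4.12, 4.67 and 5.49 FPKM in sham, 8.67, 9.11 and 13 in MI, 4.95, 6.5 and 5.11 in CIH and 29.4, 13.9 and 43.1 in MI+CIH, in the order of sham and CIH, then MI, then MI+CIH, with no overlap between these steps. Mpeg1 rose by 2.15 in MI+CIH against CIH (0.00211) and by 2.35 vs sham (0.00298), in all 21 alternatives each.

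Antibody receptors and their signalling partners formed another set. Fcgr3, an activating receptor, stood at 10.1, 8.04 and 10.7 FPKM in sham, 21.7, 17.2 and 20.7 in MI, 6.55, 12.5 and 9.48 in CIH and 24.1, 22.2 and 41.4 in MI+CIH. MI lay above sham and MI+CIH above MI in every library. Fcgr3 rose by 1.56 in MI+CIH against CIH (adjusted p = 0.0026) and by 1.51 vs sham (0.00519). Fcgr2b, the inhibitory receptor, stood at 2.44, 1.98 and 3.49 FPKM in sham, 5.59, 4.92 and 5.47 in MI, 2.49, 3.01 and 3.79 in CIH and 6.31, 4.36 and 15.1 in MI+CIH, with MI+CIH 2 below all MI libraries, and rose by 1.17 in MI+CIH against CIH (0.0289) and by 1.38 against sham (0.0227). Fcgr1, the receptor of high affinity, stood at 1.44, 1.19 and 2.08 FPKM in sham, 1.87, 2.12 and 2.63 in MI, 0.426, 1.33 and 0.582 in CIH and 2.8, 2.12 and 4.47 in MI+CIH and rose in MI+CIH vs CIH by 1.52 (0.00469). CIH 1 and CIH 3 held its lowest values. Tyrobp, the adaptor DAP12 through which TREM2 signals, stood at 17.1, 13 and 22 FPKM in sham, 27.8, 19.1 and 28.9 in MI, 9.27, 23.2 and 7.87 in CIH and 40.5, 31.7 and 104 in MI+CIH and rose by 2.05 in MI+CIH against CIH (0.0105) and by 1.56 against sham (0.0455). Its call vs sham held in 8 of 21 alternatives. Fcer1g, the common chain of the activating receptors, ranged from 6.34 to 40.4 FPKM, the highest in MI+CIH 3, and passed in no comparison.

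Among receptors for bacterial and modified lipids, Cd14, which binds bacterial lipopolysaccharide, stood at 3.21, 4.21 and 3.86 FPKM in sham, 7.13, 7.8 and 9.35 in MI, 2.83, 7.2 and 4.09 in CIH and 9.69, 11.1 and 14.7 in MI+CIH. MI lay above sham and MI+CIH above MI in every library, while CIH 2 reached the MI range. Cd14 rose by 1.31 in MI+CIH against CIH (adjusted p = 0.00541) and by 1.52 vs sham (0.00538). Msr1, a scavenger receptor for modified lipoproteins, stood at 0.918, 0.748 and 1.09 FPKM in sham, 1.91, 1.1 and 1.68 in MI, 0.409, 0.755 and 1.03 in CIH and 2.45, 1.72 and 6.58 in MI+CIH, with MI+CIH 2 inside the MI range. Msr1 rose by 1.58 in MI+CIH against CIH (0.0101) and by 1.35 against sham (0.0297). Cx3cr1, the fractalkine receptor of patrolling monocytes and tissue macrophages, stood at 0.82, 0.456 and 1.33 FPKM in sham, 1.72, 1.92 and 1.95 in MI, 0.607, 1.67 and 0.576 in CIH and 2.75, 1.86 and 3.91 in MI+CIH. Again MI+CIH 2 lay inside the MI range. Cx3cr1 rose by 1.24 in MI+CIH against CIH (0.0157) and by 1.29 against sham (0.0208).

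Other genes mark white blood cells in general. Ptprc, which encodes CD45, the surface phosphatase of all white blood cells, stood at 1.34, 1.63 and 2.0 FPKM in sham, 2.65, 2.31 and 2.52 in MI, 0.935, 1.14 and 0.953 in CIH and 4.18, 3.02 and 5.84 in MI+CIH. All 4 groups were separated, in the order CIH, sham, MI and MI+CIH. Ptprc rose by 1.64 in MI+CIH against CIH (adjusted p = 0.00127) and by 1.14 vs sham (0.00595). Laptm5, a lysosomal protein of white blood cells, stood at 11, 10.1 and 12.1 FPKM in sham, 12.9, 11.9 and 15.7 in MI, 6.01, 8.73 and 6.44 in CIH and 27.2, 16.4 and 40.7 in MI+CIH. CIH lay below sham and MI+CIH above MI in every library, and sham and MI overlapped. Laptm5 rose by 1.84 in MI+CIH against CIH (0.00184) and by 1.22 against sham (0.0126). Cd84, an adhesion receptor, stood at 0.88, 1.15 and 1.55 FPKM in sham, 1.18, 1.28 and 1.48 in MI, 0.527, 0.677 and 0.986 in CIH and 3.15, 1.65 and 6.16 in MI+CIH and rose by 1.62 in MI+CIH against CIH (0.00613) and by 1.16 against sham (0.0358).

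Ms4a7, a membrane protein of mature macrophages, stood at 0.555, 0.629 and 0.651 FPKM in sham, 0.744, 0.949 and 1.3 in MI, 0.535, 0.558 and 0.508 in CIH and 3.04, 0.966 and 4.59 in MI+CIH. It was close to even in sham and CIH, and MI+CIH 2 lay inside the MI range. Ms4a7 rose by 1.53 in MI+CIH against CIH (adjusted p = 0.00993) and by 1.42 vs sham (0.0213). Cd86, a costimulatory ligand for T cells, stood at 0.481, 0.948 and 1.33 FPKM in sham, 1.15, 1.75 and 2.0 in MI, 0.825, 1.19 and 1.56 in CIH and 2.2, 1.96 and 3.0 in MI+CIH. Cd86 rose by 0.78 in MI+CIH against CIH (0.047) and by 1.05 against sham (0.0221), the first call in 9 of 21 alternatives. Aif1, the calcium-binding protein IBA1 of macrophages, ranged from 1.14 to 6.73 FPKM and passed in no comparison.

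The larger counts also changed with single libraries. In MI+CIH vs CIH, 10 calls were lost without MI+CIH 3 (Cd163, Mrc1, Cbr2, Plac8, Clec7a, Cd68, Lyz2, Fcgr2b, Cx3cr1 and Cd86, limma adjusted p from 0.0514 to 0.154). Without CIH 1, 8 were lost (Cd163, Mrc1, Cbr2, Plac8, Clec7a, Lyz2, Fcgr2b and Cd86, 0.0623 to 0.132). Leaving out CIH 3 cost 5 calls (Mrc1, Plac8, Clec7a, Cd68 and Cx3cr1, 0.0546 to 0.0807) and CIH 2 cost 4 (Cd163, Cbr2, Fcgr2b and Cd86, 0.0596 to 0.102). MI+CIH 1 cost 3 (Clec7a, Cd68 and Cd86, 0.0524 to 0.0795), as did MI+CIH 2 (Cd163, Cbr2 and Lyz2, 0.0656 to 0.112). Cbr2 was also lost without sham 3 or any 1 MI library, Cd86 without sham 2, MI 2 or MI 3, and Cd163 without sham 3, at adjusted p from 0.0501 to 0.0642.

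Against sham, 13 calls were lost without sham 1 (Cd163, Mrc1, Mertk, Axl, Clec7a, Lyz2, Tyrobp, Fcgr2b, Msr1, Cx3cr1, Ms4a7, Cd84 and Cd86, limma adjusted p from 0.0535 to 0.125). Without sham 2, 12 were lost (Mrc1, Axl, Clec7a, Fcgr4, Lyz2, Tyrobp, Fcgr2b, Msr1, Cx3cr1, Ms4a7, Cd84 and Cd86, 0.0543 to 0.133). Leaving out MI+CIH 3 cost 11 (Cd163, Mrc1, Clec7a, Fcgr4, Lyz2, Tyrobp, Msr1, Cx3cr1, Ms4a7, Cd84 and Cd86, 0.0504 to 0.138). Sham 3 cost 6 (Cd163, Fcgr4, Tyrobp, Msr1, Ms4a7 and Cd84, 0.0515 to 0.088) and MI+CIH 1 cost 4 (Fcgr4, Tyrobp, Ms4a7 and Cd84, 0.0595 to 0.0698). Tyrobp was also lost without CIH 1 or any 1 MI library and Cd84 without MI 2 or MI 3, at 0.0504 to 0.0619, and Cd163 without MI+CIH 2 (0.0719). Lgals3, Gpnmb, Trem2, Ms4a6c, Marco, Cd5l, Adgre1, Cd14, Fcgr3, Mpeg1, Laptm5 and Ptprc kept both calls whichever library was left out. Cd5l was tested only through the MI+CIH libraries, and the filter was not redone as libraries were left out, so its place here is a description.

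**Figure D3:**
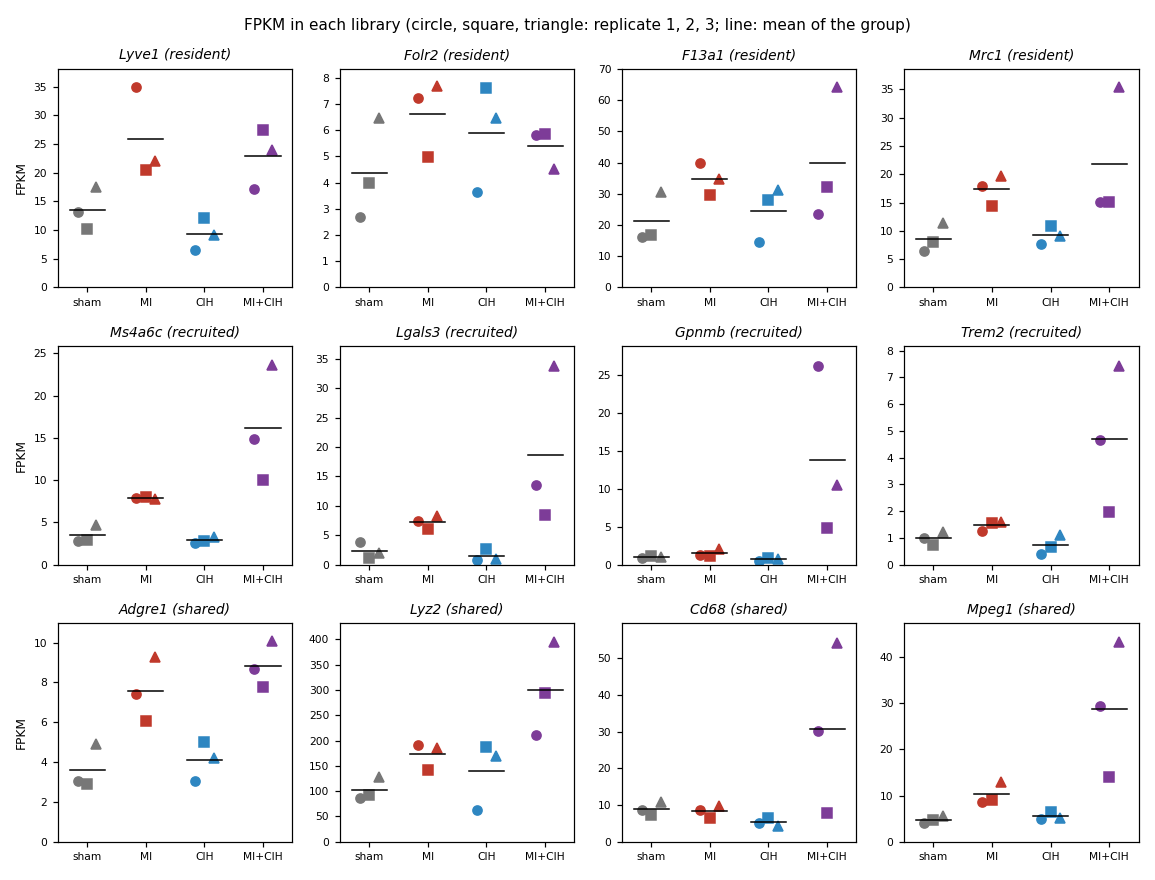
FPKM (linear axes from 0, a range of its own per panel) of 12 of the genes, 4 each of the resident, recruited and shared groups, in the 12 libraries, with points for libraries and lines for group means. The mean lies highest in MI+CIH except for Lyve1 and Folr2, where it lies highest in MI.

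Set against the shared genes, the role groups kept different proportions. For each library the median log2 level of the shared genes was taken from that of each other role group. For resident genes the difference was 1.80 to 2.14 in the sham libraries, 1.48 to 2.10 in those of MI, 1.41 to 1.54 in those of CIH and 1.19 to 2.13 in those of MI+CIH, so the groups overlapped. For recruited genes it was -1.37 to -1.05 in the sham libraries, -2.0 to -1.87 with MI, -1.98 to -1.69 with CIH and -1.36 to -0.68 with both. For lung and other tissue genes it was -2.60 to -1.75 in the sham libraries, -2.81 to -2.05 with MI, -3.15 to -2.61 with CIH and -1.27 to -0.07 with both. The MI+CIH libraries lay above the MI and CIH libraries in both of the last 2 measures. Against sham they lay above for the lung and other tissue genes, but overlapped for the recruited genes. These are descriptions, since the genes were grouped with results of the data known.

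**Figure D4:**
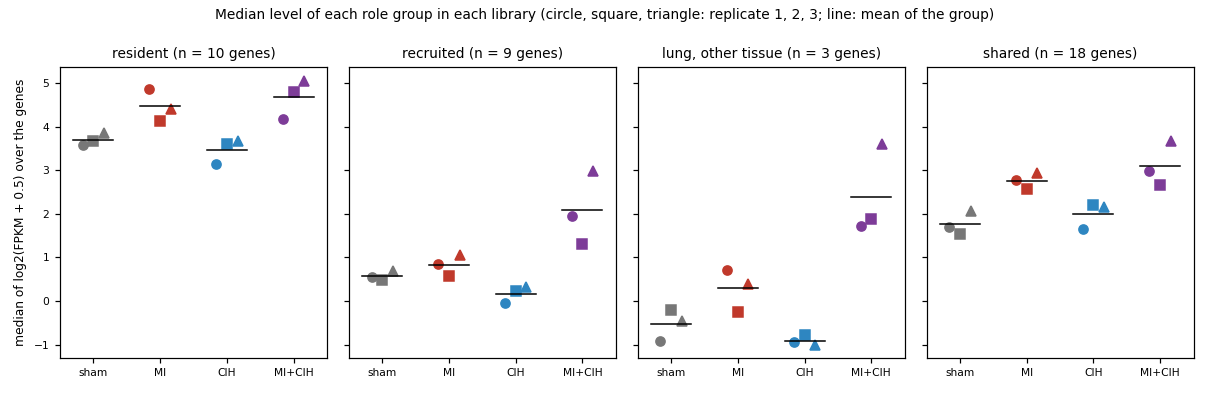
Median log2(FPKM + 0.5) over the genes of each role group (panels) in each library (points), by group, with lines for the mean of the 3 libraries. All MI+CIH libraries lie above all others for the recruited and the lung and other tissue genes, while MI and MI+CIH overlap for the resident and shared genes.

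The difference between the effect of hypoxia with infarction and without it was tested as an interaction, the log2 fold change of MI+CIH vs MI less that of CIH vs sham. None of the 38 tested genes passed by limma, where 0.0774% of all genes did (0.071% with a higher value). The voom count fit passed 1, Ptprc, and 1.14% of all genes it tested. By limma 18 of the 38 reached an unadjusted p under 0.05, all in the direction of a higher value with both. The share of all genes at that level is not given here, so the 18 have no background to be judged by. The median of the tested genes was 0.93 against 0.13 over all genes. The lowest adjusted p was 0.0674 for Cd5l (2.12, SE 0.42), followed by 0.0683 for Marco (3.26), 0.0705 for Gpnmb (2.90) and Ly6c2 (1.17), 0.0722 for Laptm5 (1.57) and 0.0742 for Ptprc (1.16). Cd5l was tested only through the MI+CIH libraries, on which the interaction also rests, so its value is a description.

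The interaction count changed most without MI+CIH 2. MI+CIH 2 had the lowest MI+CIH value for 25 of the 40 genes. It was lowest for 16 of the 18 shared and 7 of the 9 recruited genes, with no share of all genes given. Without it 6.44% of all tested genes passed, against 0.0774% with it, and 14 of the 38 did, Mertk, Ly6c2, Gpnmb, Trem2, Ms4a6c, Fcgr4, Marco, Cd5l, Cd68, Mpeg1, Laptm5, Ms4a7, Cd84 and Ptprc. Among them Gpnmb was 3.46 (adjusted p = 0.0115) and Cd68 2.93 (adjusted p = 0.011). Cd5l, also among the 14, was tested only through the MI+CIH libraries. All of the 14 but Ly6c2 passed in MI+CIH vs MI without MI+CIH 2, with Mpeg1 at 1.77 (adjusted p = 0.00727) and Trem2 at 1.71 (adjusted p = 0.0132). No label gives a reason to leave MI+CIH 2 out.

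Of 35 further genes of macrophage growth, signalling and function, 34 were tested, 1 of them (Itgam) only through the MI+CIH libraries. Of these 0 rose and 1 fell in MI vs sham, 26 rose in MI+CIH vs CIH, 18 rose in MI+CIH vs sham and 0 rose in MI+CIH vs MI. Of all tested genes 1.37%, 19.9%, 11.3% and 0.239% rose in that order, and 0.593% fell in MI vs sham. The median log2 fold changes were 0.41, 1.24, 0.99 and 0.61, against 0.06, 0.20, 0.12 and 0.05 over all genes. At an unadjusted p under 0.05, 8, 30, 25 and 14 were higher. Counts at an unadjusted p have no share of all genes beside them here. By voom 0 rose in MI vs sham and 1 rose in MI+CIH vs MI. In CIH vs sham 0 passed by limma, with 1 higher and 4 lower at an unadjusted p under 0.05, and 1 fell by voom. Csf1, the growth factor that macrophages need to survive, stood at 19.7, 23.8 and 25.6 FPKM in sham, 15.4, 13.8 and 11.8 in MI, 13.5, 12.7 and 10.1 in CIH and 21.4, 17.8 and 21.4 in MI+CIH. It was lower in every MI and CIH library than in any sham library, and MI+CIH 1 and 3 lay in the sham range. Csf1 fell in MI vs sham (-0.73, adjusted p = 0.0401) and passed the interaction (1.46, 0.0486). Its receptor gene Csf1r stood at 13.2, 13 and 15.8 FPKM in sham, 26.2, 19.2 and 22.6 in MI, 10.8, 19.5 and 19.5 in CIH and 24.3, 24.7 and 44.7 in MI+CIH and rose in MI+CIH vs CIH (0.88, 0.0303).

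Among the other abundant genes of that list, C1qa, a chain of the complement protein C1q that macrophages make, stood at 34.2, 28.6 and 48.6 FPKM in sham, 76.8, 50.4 and 67.9 in MI, 24.1, 53.5 and 40.4 in CIH and 85.7, 67.5 and 112 in MI+CIH and rose by 1.20 in MI+CIH against CIH (adjusted p = 0.0144). Ctss, a lysosomal protease of macrophages, stood at 12, 13.4 and 23 FPKM in sham, 37.7, 29 and 41.1 in MI, 11.1, 27.5 and 31.9 in CIH and 94.3, 55.9 and 136 in MI+CIH. Its MI and MI+CIH libraries did not overlap, and Ctss rose by 2.04 in MI+CIH against CIH (0.00657). Spp1, which encodes osteopontin of wound macrophages, stood at 1.23, 0.645 and 1.42 FPKM in sham, 1.69, 2.45 and 4.9 in MI, 0.28, 0.781 and 0.659 in CIH and 144, 7.53 and 119.5 in MI+CIH. MI+CIH 1 and 3 stood far above MI+CIH 2, which in turn lay above the other 9, and Spp1 rose by 5.63 in the same comparison (0.0026).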

How the data were processed

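The authors deposited 1 table of FPKM for 26781 genes in 12 heart libraries. The unit was inferred, since the values step by 1 read per gene and library: for 22797 of 25404 genes (89.7%) every library's value was a whole number of reads within 0.1 reads, given exon lengths of GENCODE M21 on GRCm38. Per the submitters' processing notes, mm10 and the tools HISAT, DESeq 1.8.3 and featureCounts 1.5.0-p3 were used in roles not stated. The labels' protocol names a small RNA library kit, while the values cover long messenger RNAs. Strand of counting and handling of shared reads are not given in the sources used here, so overlapping genes cannot be told apart.

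Genes that reached 0.5 FPKM in 3 or more libraries (15503) entered limma 3.58.1 (trend, robust, R 4.3.3, statmod 1.5.0) as log2(FPKM + 0.5), with the 12 libraries in a common fit of group means. Each of the 6 comparisons had its own Benjamini-Hochberg adjustment. A count test had been planned for counts only. Of the 40 genes 38 passed the filter, and Cd5l did so only with the MI+CIH libraries counted, as did 744 of all genes tested (4.8%). Fold changes of low genes are understated by the pseudocount. Every library's value is given for genes of the 40 that passed in any comparison, for the 3 most abundant of each role group and for the lung group. Of other cell types only some genes are named, and not every gene that passed. The alternatives were all genes unfiltered, a filter at a mean of 1 FPKM, pseudocounts of 0.1 and 1, median-of-ratios scaling, only the groups compared, a replicate block, each library left out, sham 2 and MI+CIH 3 left out together and, added after seeing the data, voom on recovered reads (at least 10 in 3 libraries). The members, lists and roles were chosen with earlier results of these data known.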

Additional observations from a re-analysis of the deposited data

Results flagged for a closer look

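For 4 genes the 3 CIH libraries all lay below the 3 sham libraries, while the 3 MI+CIH libraries all lay above the 3 MI libraries, as for 381 of all 15503 tested genes (2.46%). The separation itself is a description, and the interaction, which tests the difference, did not pass for any of the 4.

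Gpnmb, the glycoprotein of lipid-laden macrophages, had a log2 fold change of -0.34 in CIH vs sham and 2.56 in MI+CIH vs MI, an interaction of 2.90 (limma adjusted p = 0.0705). Laptm5, the lysosomal protein of white blood cells, had -0.63 and 0.95, an interaction of 1.57 (0.0722). Ly6c2, the monocyte marker, had -0.60 and 0.56, an interaction of 1.17 (0.0705). Ptprc, which encodes CD45, had -0.51 and 0.66, an interaction of 1.16 (0.0742). Without MI+CIH 2 the interaction passed for all 4 and for 6.44% of all tested genes, and Ptprc passed by voom as well.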

How the results depend on the processing

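CIH vs sham had 0 of the 40 genes passing under every alternative. In MI vs sham, 1 as reported became 0 with no filter, with a pseudocount of 1, with median-of-ratios scaling and without sham 2 and MI+CIH 3 together, 2 with a mean of at least 1 FPKM and with the replicate block, 3 by voom and 10 in a fit of only the groups compared, and leaving out each library gave 0 to 5. Calls over all genes moved too, from 304 to 1042 with only the groups compared, 401 by voom and 22 to 484 on leaving out each library. In MI+CIH vs MI, 3 became 0 with a mean of at least 1 FPKM, a pseudocount of 0.1, only the groups compared, the replicate block, and without sham 2 and MI+CIH 3 together, and leaving out each library gave 0 to 13 (51 of all genes as reported, 0 to 1029 on leaving out each). In MI+CIH vs CIH, 32 became 18 with only the groups compared and 21 without both libraries, with 22 to 32 on leaving out each library (4368 of all genes became 1475, 2291 and 2826 to 4590). In MI+CIH vs sham, 26 became 14 with only the groups compared and 8 without both, with 13 to 28 on leaving out each (2603 of all genes became 1173, 563 and 976 to 3035). In the interaction, 0 became 1 with median-of-ratios scaling and by voom, and leaving out each library gave 0 to 14 (12 of all genes became 155, 199 and 0 to 999). A fit of only the groups compared and fits with libraries left out use fewer libraries, and for the other alternatives the cause was not tested. Of the genes called, 18 of 32 in MI+CIH vs CIH and 8 of 26 in MI+CIH vs sham passed in every alternative in which they were tested, and no called gene changed sign. Both counts include Cd5l, which was tested only through the MI+CIH libraries.

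The replicate numbers are not stated to pair the libraries: same-numbered libraries correlated at -0.17 to 0.13 in their deviations from group means, with 3 of 18 pairs over 0.1, and 5 of 12 libraries correlated best with their own number. With 3 libraries a group, 0 calls do not show that values did not differ. Arg1 and Chil3, at 0.5 FPKM or more in only 2 libraries each, were outside the main fit. The voom count fit included both, and neither passed in any comparison.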

Other observations

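Of 11 alveolar macrophage genes outside the 40, 7 were tested, of which 5 rose in MI+CIH vs CIH (median log2 fold change 1.57), 4 against sham (0.91) and 1 against MI (0.92). Of the 5, 2 (Atp6v0d2 and Ear2) were tested only through the MI+CIH libraries, as was 1 of the 4 against sham, and the medians include both genes. The list also holds Fabp4, Pparg and Cidec, and what fat cells add to these was not tested. Of all tested genes 19.9%, 11.3% and 0.239% rose in these comparisons, with medians of 0.20, 0.12 and 0.05. Car4 changed by -0.18 in MI+CIH against CIH (adjusted p = 0.513), and Krt79 and Fabp1 were under 0.5 FPKM in every library. Atp6v0d2, a proton pump subunit of alveolar macrophages and osteoclasts, stood at 0.0125, 0.0391 and 0.121 FPKM in sham, 0.0598, 0.179 and 0.16 in MI, 0.0523, 0.0881 and 0 in CIH and 1.23, 1.05 and 9.83 in MI+CIH. All MI+CIH libraries lay above the other 9. Ear2, a ribonuclease of eosinophils and lung macrophages, stood at 0.283, 0.69 and 0.321 FPKM in sham, 1.17, 0.26 and 0.0927 in MI, 0, 0.125 and 0.126 in CIH and 1.23, 1.62 and 0.894 in MI+CIH, so that MI 1 lay within the MI+CIH range. Of 8 dendritic cell genes 4 were tested, of which 2 rose in MI+CIH vs CIH and against sham, Cd209a (1.06, adjusted p = 0.0108, against CIH) and Clec10a (1.39, 0.0227), while Zbtb46 changed by -0.12 (0.66). Clec10a, a lectin receptor of dendritic cells and macrophages, stood at 1.4, 2.65 and 1.74 FPKM in sham, 3.91, 2.08 and 2.83 in MI, 1.16, 2.15 and 2.66 in CIH and 3.37, 5.06 and 11.2 in MI+CIH, with MI+CIH 3 the highest.

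Hmox1, the haem-degrading enzyme that macrophages induce when they clear red cells, stood at 9.09, 7.39 and 7.4 FPKM in sham, 11, 9.55 and 8.99 in MI, 7.75, 6.36 and 9.7 in CIH and 19.1, 16.2 and 202 in MI+CIH. The MI+CIH 3 value was far above all others, and Hmox1 rose in MI+CIH vs CIH by 2.28 (SE 0.73, adjusted p = 0.0397). The sum of the dendritic cell genes was 10.7 to 16.6 FPKM in MI+CIH, 9.17 to 12.5 in MI, 6.20 to 7.75 in sham and 5.65 to 8.15 in CIH, and that of 13 T, B and killer cell genes 10.8 to 13.0, 5.36 to 6.84, 3.89 to 7.30 and 2.13 to 5.97.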
